A study of Mus musculus with 62 samples.

Results

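Glucocorticoid signalling in the heart was followed through 10 genes: Nr3c1, which encodes the glucocorticoid receptor, Hsd11b1, which encodes the enzyme that activates glucocorticoids inside cells, and 8 genes known to be induced by the receptor (Fkbp5, Tsc22d3, Ddit4, Cebpd, Klf9, Sgk1, Arrdc2 and Fam107a). The genes were chosen by symbol, and all 10 were found among the 47643 gene symbols of the table. All 10 also reached at least 1 TPM (a share of each library corrected for transcript length) in at least 5 libraries, as did 12541 symbols in all, which were the ones tested. Hearts came from female mice that had received cachectic melanoma cells (CAC), melanoma cells without this effect (NCAC) or a mock injection (Con). Their age is 2 months in the labels of all 4 weeks, so whether it holds for injection or collection is uncertain. Cachexia is a wasting of muscle and fat seen with some tumours. RNA of whole hearts was sequenced 2, 4, 6 and 8 weeks after injection, with 5 libraries in each arm and week, except 7 in CAC at week 8 and 4 in Con at week 4. That made 22 CAC, 20 NCAC and 19 Con libraries, called biological replicates in the labels, and p-values measure the spread between them. CAC and NCAC mice carried different melanoma cells, so wasting and cell line cannot be told apart. C57BL6/J is the strain in the labels, but the series' design names NCI Ath/nude mice, which lack a thymus, so the host's strain is uncertain. The extraction protocol further speaks of injected LLC cells (Lewis lung carcinoma, a mouse line used in cachexia studies) and a time point of 3 weeks, neither of which any sample carries, so the cells and times given here rest on the sample labels and the design.

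Glucocorticoids are adrenal steroid hormones released in stress, illness and in a daily rhythm, and corticosterone is the main one in mice. They bind the receptor in the cytoplasm, where heat shock protein chaperones hold it, and the bound receptor enters the nucleus and switches genes on or off. The amount of active hormone inside a cell also depends on Hsd11b1, which turns inactive 11-dehydrocorticosterone back into corticosterone. The target genes followed here include a feedback inhibitor of the receptor, an anti-inflammatory factor, a brake on growth signalling and the transcription factor genes Cebpd and Klf9. Most of them also respond to other signals, such as cytokines, hypoxia or the circadian clock. The hour of tissue collection is not given in the sources used here.

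One further library, Con week 4 replicate 2, was left out by the rule that defined the set. In it mitochondrially encoded transcripts held 89.1% of TPM, against 49.3 to 61.1% in the other 61 libraries, and the cardiomyocyte myosin gene Myh6 read 612 TPM, against 3419 to 8033. Myh6 marks heart muscle, and its level in the 61 libraries goes with the labelled tissue. CAC week 8 replicate 3 stood apart from the other libraries of its group, and week 8 calls that changed without it are given both ways. TPM are shares, and the median of all tested genes was higher in CAC than in Con hearts by 0.19 on the log2(TPM + 1) scale at week 8 and by 0.21 at week 6, and higher in CAC than in NCAC hearts by 0.24 at week 8. Differences were therefore also taken after median-of-ratios rescaling, which sets each library to a common scale by its median ratio to the other libraries and brought the week 8 median against Con to 0.0013.

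At week 8 CAC hearts held more RNA of 8 of the 10 genes than Con hearts and less of 1, and none was called in NCAC hearts at any week. The median difference of the 10 genes was 1.62 on the log2(TPM + 1) scale at week 8, beside 0.19 over all tested genes. Calls are limma adjusted p below 0.05, with Benjamini-Hochberg adjustment over all tested genes, and at week 8 50.8% of all tested genes passed it upward in CAC hearts against Con hearts and 9.98% downward. The count of 8 of 10 is thus read against about that share.

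**Figure D1:**
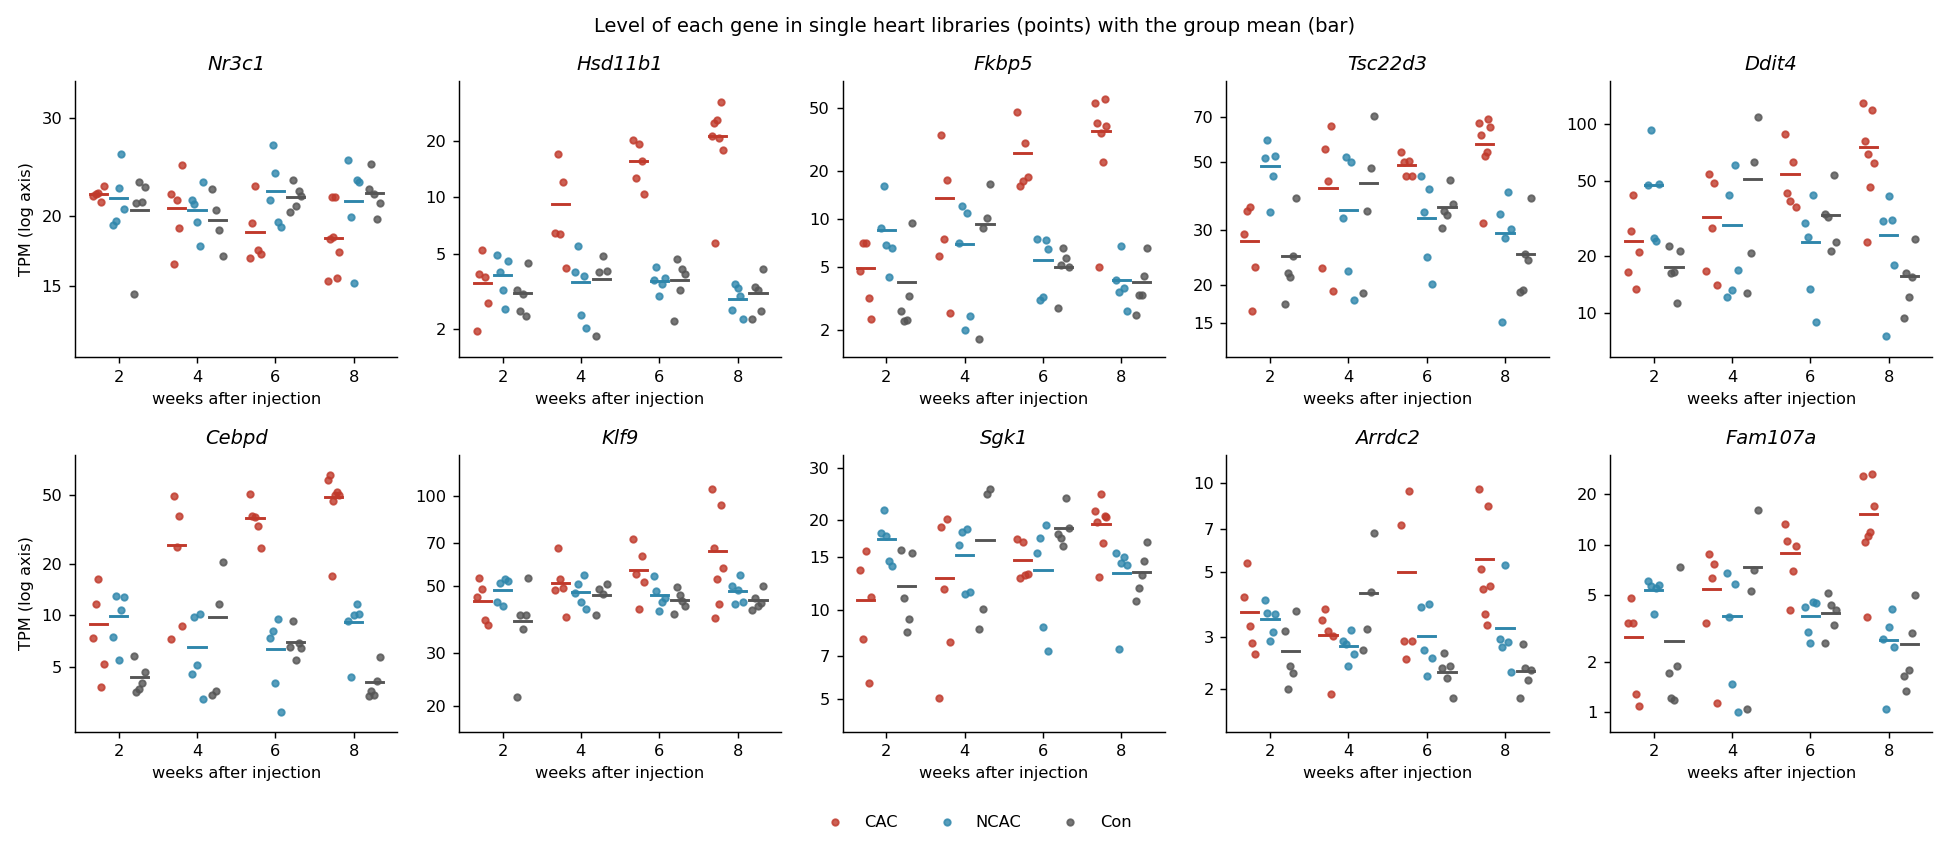
TPM (log axis) of the 10 genes in each of 61 heart libraries by week after injection, with CAC in red, NCAC in blue and Con in grey from left to right, points for libraries and bars for group means. Hsd11b1 and Cebpd of CAC hearts lie above all Con hearts of the same week at weeks 6 and 8, while Nr3c1 keeps between 14.5 and 26.8 TPM throughout.

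The start regions of the genes were read from RefSeq promoter windows on GRCm38.p6, from 250 bases before to 50 bases after each listed start. Windows were in the table for 8 of the 9 genes other than Nr3c1, and Cebpd was the one without an entry. Printed here are the windows of Hsd11b1, Fkbp5 and Fam107a, the 3 called genes with the smallest p among them, and 1 of Sgk1, shown because of its motif. The lines run 5′ to 3′ on the strand of the gene. Capitals mark matches on either strand to AGAACA (the half-site bound by the receptor), to CACGTG (an E-box, which clock factors bind) or to TTCNNNGAA (a STAT motif). The windows are chr1:193242311-193242610 on the minus strand for Hsd11b1, chr17:28486100-28486399 on the minus strand for Fkbp5, chr14:8309730-8310029 on the minus strand for Fam107a (the second of 3 listed starts) and chr10:21993640-21993939 on the plus strand for Sgk1 (the fifth of 6 listed starts). The starts of Fam107a and Sgk1 were picked after their matches were seen.
Hsd11b1: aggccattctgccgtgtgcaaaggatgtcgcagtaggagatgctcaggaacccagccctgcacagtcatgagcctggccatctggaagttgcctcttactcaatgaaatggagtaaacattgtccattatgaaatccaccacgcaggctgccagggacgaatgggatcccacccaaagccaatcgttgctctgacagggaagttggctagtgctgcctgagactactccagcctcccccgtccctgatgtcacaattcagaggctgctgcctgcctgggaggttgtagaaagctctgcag
Fkbp5: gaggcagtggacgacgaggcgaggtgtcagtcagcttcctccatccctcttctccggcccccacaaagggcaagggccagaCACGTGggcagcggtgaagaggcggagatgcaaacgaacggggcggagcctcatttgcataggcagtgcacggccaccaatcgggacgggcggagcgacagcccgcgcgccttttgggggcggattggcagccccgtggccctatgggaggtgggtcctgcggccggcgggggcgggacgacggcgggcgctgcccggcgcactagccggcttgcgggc
Fam107a: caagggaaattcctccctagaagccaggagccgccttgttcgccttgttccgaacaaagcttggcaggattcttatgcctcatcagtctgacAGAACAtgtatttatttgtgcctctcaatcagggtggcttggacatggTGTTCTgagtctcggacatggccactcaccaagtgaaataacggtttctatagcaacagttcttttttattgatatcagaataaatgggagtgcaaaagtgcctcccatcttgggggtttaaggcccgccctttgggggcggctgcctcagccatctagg
Sgk1: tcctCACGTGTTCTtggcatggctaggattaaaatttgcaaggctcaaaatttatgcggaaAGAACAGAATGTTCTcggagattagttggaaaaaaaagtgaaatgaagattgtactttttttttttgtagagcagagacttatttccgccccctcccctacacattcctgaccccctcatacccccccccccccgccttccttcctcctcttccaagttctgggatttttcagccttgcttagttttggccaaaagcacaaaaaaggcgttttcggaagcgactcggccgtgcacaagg

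The Hsd11b1 window held none of these motifs, nor did those of Ddit4 and Arrdc2. The Fkbp5 window held only an E-box, at -169 from the start. The Fam107a window held 2 half-sites, at -158 and -110. The Sgk1 window held the full receptor element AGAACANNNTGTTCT at -189, made of the half-sites at -189 and -180, and a further half-site at -242 that overlaps an E-box at -246. Of 32851 windows over all listed starts 19.0% held a half-site, 7.15% an E-box and 8.30% a STAT motif, and the full element was in 3 windows (0.00913%). Among the 8 genes 3 held a half-site at any listed start (Tsc22d3, Sgk1 and Fam107a), 3 a STAT motif (Tsc22d3, Klf9 and Sgk1) and 1 the full element. These counts are per gene, and Tsc22d3, Sgk1 and Fam107a had 3, 6 and 3 listed starts, so shares per window are no background for them. At the first listed start only Sgk1 held a half-site, beside 12.1% of tested genes. Klf9 and Sgk1 held a STAT motif there, beside 7.01% of tested genes. A match is a description of the letters in the window and does not show binding.

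By the GENCODE M21 annotation on mm10, Hsd11b1 (ENSMUSG00000016194.14) is a protein-coding gene at chr1:193221634-193264075 and Fkbp5 (ENSMUSG00000024222.17) one at chr17:28399094-28517527, both on the minus strand. Cebpd (ENSMUSG00000071637.5) lies at chr16:15887286-15891031 on the plus strand, and Fam107a (ENSMUSG00000021750.15) at chr14:8296274-8318023 on the minus strand. The authors' annotation version is not given in the sources used here, and TPM of a symbol covers all its transcripts, so the start in use could not be read from these values.

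Nr3c1 itself changed little. It ranged over 15.3, 18.2 and 21.6 TPM (lowest, median and highest of 7) in CAC hearts at week 8. It was 15.2, 19.9, 23.0, 23.2 and 25.2 TPM in NCAC hearts and 19.8, 21.1, 21.9, 22.3 and 24.8 TPM in Con hearts. The CAC values overlapped those of both other arms, with 5 of 7 below every Con value and none below every NCAC value. The difference from Con was -0.26 (SE 0.10, limma adjusted p = 0.026), and that from NCAC was -0.20 (adjusted p = 0.081), called without CAC replicate 3 or 5 or NCAC replicate 3 (adjusted p between 0.0080 and 0.042). The fall against Con was lost when CAC replicate 1, CAC replicate 6 or Con replicate 2 was left out, with adjusted p of 0.065, 0.062 and 0.078. After rescaling it was -0.47 against both Con and NCAC (limma adjusted p = 1.3e-05 for each), where 25.8% of tested genes were called lower against Con and 26.1% against NCAC. At week 6 the receptor averaged 18.7 ± 2.46 TPM in CAC, 22.2 ± 3.24 in NCAC and 21.7 ± 1.12 in Con hearts (SD, n = 5 each), and the difference from Con was called after rescaling (-0.44, limma adjusted p = 2.1e-04, with 17.9% of tested genes called lower) but not as deposited (-0.21, adjusted p = 0.105). That call was also made without CAC replicate 3 (-0.28, adjusted p = 0.042), in a fit of only the groups compared (-0.21, adjusted p = 0.041) and after rescaling without mitochondrial and haemoglobin genes (-0.48, adjusted p = 5.5e-04). Against NCAC the week 6 difference was -0.23 and not called as deposited, and -0.45 after rescaling (limma adjusted p = 1.8e-04, with 2494 of 12541 tested genes called lower). Without CAC replicate 3 or NCAC replicate 5 the receptor was called lower against NCAC too (-0.30 and -0.28, adjusted p = 0.029 and 0.047). Over the 12 groups its mean levels ran from 22.2 TPM in NCAC at week 6 down to 18.3 TPM in CAC at week 8, and each step between neighbours in that order was smaller than the spread within groups.

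Hsd11b1, the enzyme that regenerates active glucocorticoid, kept a narrow range in NCAC and Con hearts and had the third largest difference of the set between CAC and Con hearts at week 8. At week 8 it was 5.76, 21.2 and 32.0 TPM (lowest, median and highest of 7) in CAC hearts. The NCAC hearts held 2.25, 2.52, 2.99, 3.28 and 3.44 TPM, and the Con hearts 2.25, 2.49, 3.22, 3.34 and 4.16 TPM. All 7 CAC hearts lay above all NCAC and all Con hearts. The difference was 2.33 against Con (SE 0.25, limma adjusted p = 5.9e-11) and 2.39 against NCAC (SE 0.25, adjusted p = 2.2e-11), and leaving out any single library kept both calls. Without CAC replicate 3 the difference from Con was 2.59. Over all 4 weeks Hsd11b1 spanned 2.02 to 5.50 TPM in the 20 NCAC hearts and 1.83 to 4.87 TPM in the 19 Con hearts.

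The rise of Hsd11b1 could be followed through the weeks. In CAC hearts it averaged 3.52 ± 1.25 TPM at week 2, 9.25 ± 5.28 at week 4 and 15.7 ± 4.18 at week 6 (SD, n = 5 each), and 21.2 ± 8.18 at week 8 (SD, n = 7). At week 4 the 5 CAC hearts had 6.49, 17.1, 6.40, 12.1 and 4.19 TPM, so the hearts of that week differed widely, with replicates 2 and 4 highest. On average the 5 CAC hearts exceeded the NCAC hearts by 1.08 (limma adjusted p = 0.0040) and the Con hearts by 1.03 (adjusted p = 0.011). CAC replicate 5 lay within both other ranges, which reached 5.50 TPM in NCAC and 4.87 TPM in Con hearts of that week. The week 4 call against Con was lost without CAC replicate 2 (0.79, adjusted p = 0.082) or Con replicate 1 (0.81, adjusted p = 0.067), while the call against NCAC held without any single library. At week 6 all 5 CAC hearts, between 10.4 and 20.3 TPM, lay above every NCAC and Con heart, with differences of 1.82 and 1.83 (adjusted p = 3.3e-07 and 2.6e-07). In the order of group means CAC at weeks 8, 6 and 4 came first, followed by the 9 other groups between 3.86 and 2.90 TPM, whose neighbours did not differ beyond their spread.

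Fkbp5 encodes a co-chaperone of Hsp90 that lowers the affinity of the receptor for its hormone and is itself a strong receptor target. At week 8 it was 5.01, 38.8 and 57.0 TPM (lowest, median and highest of 7) in CAC hearts. It was 2.64, 3.46, 3.69, 4.14 and 6.78 TPM in NCAC hearts and 2.49, 3.30, 3.31, 4.34 and 6.55 TPM in Con hearts. All CAC hearts but replicate 3 were above both other arms. The differences were 2.68 against Con (SE 0.45, limma adjusted p = 1.9e-06) and 2.64 against NCAC (SE 0.45, adjusted p = 2.2e-06), and 3.07 and 3.03 without CAC replicate 3. At week 6 CAC hearts had 47.4, 16.2, 17.3, 30.4 and 18.4 TPM, all above the NCAC range of 3.11 to 7.44 and the Con range of 2.73 to 6.54 TPM, and both differences, 2.00 and 2.08, were called (adjusted p = 6.5e-04 and 4.1e-04). At week 4 the CAC values ran from 2.56 to 33.9 TPM and overlapped the NCAC range of 2.00 to 12.2 and the Con range of 1.74 to 16.6 TPM.

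Tsc22d3 encodes the glucocorticoid-induced leucine zipper, an anti-inflammatory protein. It was 31.6, 60.9 and 69.0 TPM (lowest, median and highest of 7) in CAC hearts at week 8. The NCAC hearts had 15.1, 28.4, 30.3, 33.8 and 39.9 TPM and the Con hearts 18.9, 19.2, 24, 25.2 and 38.2 TPM. All CAC hearts but replicate 3 exceeded both ranges, with a difference of 1.16 against Con (SE 0.27, limma adjusted p = 2.8e-04) and 0.95 against NCAC (adjusted p = 0.0020). At week 6 the 5 CAC hearts also lay above all Con and all NCAC hearts, but the differences of 0.45 and 0.61 were not called (adjusted p = 0.19 and 0.072), the one against NCAC being called without NCAC replicate 1 (0.74, adjusted p = 0.044). Both were called in fits of only the groups compared (limma adjusted p = 0.0014 against Con and 0.014 against NCAC).

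Ddit4 encodes a stress-induced inhibitor of the growth kinase complex mTORC1. It was 23.8, 69.5 and 130.2 TPM (lowest, median and highest of 7) in CAC hearts at week 8. The NCAC hearts had 7.52, 17.97, 30.7, 31.1 and 41.8 TPM and the Con hearts 9.34, 12.2, 15.5, 16.3 and 24.5 TPM. Again replicate 3 alone fell within the other ranges. The difference was 2.11 against Con (SE 0.45, limma adjusted p = 7.7e-05) and 1.54 against NCAC (adjusted p = 0.0024). At week 6 Ddit4 was called against NCAC (1.25, adjusted p = 0.025) but not against Con (0.70, adjusted p = 0.21), and the call was lost without CAC replicate 1 or 4 or NCAC replicate 3 or 5, where adjusted p lay between 0.052 and 0.107, and after rescaling (1.04, adjusted p = 0.084).

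Fam107a encodes a stress-inducible actin-binding protein best known from the brain. It was 3.72, 11.9 and 26.2 TPM (lowest, median and highest of 7) in CAC hearts at week 8. It was 1.05, 2.45, 2.73, 3.21 and 4.11 TPM in NCAC hearts and 1.34, 1.64, 1.79, 2.96 and 4.98 TPM in Con hearts. The 6 CAC hearts other than replicate 3 had at least 10.3 TPM, above every NCAC and Con heart of that week. The differences were 2.08 against Con (SE 0.40, limma adjusted p = 1.5e-05) and 1.98 against NCAC (adjusted p = 2.7e-05). At week 6 they were 0.95 and 0.99, called only against NCAC (adjusted p = 0.047, and between 0.053 and 0.124 when any of 9 of the 10 libraries was left out) and lost after rescaling (0.79, adjusted p = 0.14). Without CAC replicate 3 the difference from Con was called too (1.17, adjusted p = 0.027).

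Cebpd, a transcription factor gene of the acute phase response that is also induced through STAT3, showed the largest week 8 difference of the set against Con, and the third largest against NCAC. It was 16.9, 50.2 and 65.6 TPM (lowest, median and highest of 7) in CAC hearts. The NCAC hearts had 4.39, 9.32, 10.1, 10.2 and 11.6 TPM and the Con hearts 3.41, 3.45, 3.66, 4.18 and 5.74 TPM. All 7 CAC hearts lay above both ranges, with differences of 3.22 against Con (SE 0.36, limma adjusted p = 1.5e-10) and 2.26 against NCAC (SE 0.36, adjusted p = 5.2e-07). NCAC hearts themselves tended above Con hearts at week 8, where 4 of 5 exceeded every Con heart, but the difference of 0.96 was not called (adjusted p = 0.22). Cebpd was also called at weeks 4 and 6. At week 4 CAC hearts had 7.30, 49.6, 25.0, 37.6 and 8.68 TPM, and the differences were 1.57 against NCAC (adjusted p = 0.0036) and 1.28 against Con (adjusted p = 0.029). The week 4 call against Con was lost without CAC replicate 2, 3 or 4 or Con replicate 1 or 3, with adjusted p between 0.055 and 0.148. At week 6 the 5 CAC hearts, between 24.7 and 50.5 TPM, lay above all others, by 2.42 against NCAC and 2.22 against Con (adjusted p = 1.4e-06 and 6.0e-06).

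The remaining genes changed less. Klf9, a zinc finger transcription factor gene, had 39.3, 57.7 and 105.3 TPM (lowest, median and highest of 7) in CAC hearts at week 8, against 43.7 to 54.4 TPM in NCAC and 41.8 to 50.1 TPM in Con hearts. CAC replicates 1 and 6 were far above the rest, and 1 CAC heart was below every Con heart. Its difference of 0.46 from Con (limma adjusted p = 0.012) was lost without CAC replicate 1 (adjusted p = 0.056) and in a fit of only the groups compared (adjusted p = 0.082), and after rescaling it was 0.23 (adjusted p = 0.20). Against NCAC it was 0.36 (adjusted p = 0.043), lost without any of 7 of the 12 libraries and 0.08 after rescaling.

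Arrdc2, of the arrestin domain family, had 3.28, 4.48 and 9.58 TPM (lowest, median and highest of 7) in CAC hearts at week 8, against 2.28 to 5.25 TPM in NCAC and 1.86 to 2.83 TPM in Con hearts. All 7 exceeded every Con heart but only 2 exceeded every NCAC heart. The differences were 0.92 against Con (limma adjusted p = 1.5e-04) and 0.59 against NCAC (adjusted p = 0.010), and the one against NCAC was not called after rescaling (0.36, adjusted p = 0.15). At week 6 Arrdc2 rose against Con by 0.72 (adjusted p = 0.0048), with 7.22 and 9.44 TPM in replicates 1 and 4 and 2.53 to 2.91 TPM in the other 3. That call was lost without replicate 4 (0.49, adjusted p = 0.052) and after rescaling (0.54, adjusted p = 0.053).

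Sgk1, which encodes a kinase that regulates ion channels and also responds to mineralocorticoids, did not pass the test at week 8 in the fit over all groups. Its window with the full receptor element is shown above. It was 12.8, 20.5 and 24.4 TPM (lowest, median and highest of 7) in CAC hearts, against 7.35 to 15.5 TPM in NCAC and 10.7 to 16.9 TPM in Con hearts. The differences were 0.50 from Con (95% interval -0.0042 to 1.00, limma adjusted p = 0.080) and 0.54 from NCAC (adjusted p = 0.055). Without CAC replicate 3 both were called, at 0.59 (adjusted p = 0.040) and 0.63 (adjusted p = 0.027), and without NCAC replicate 1 the difference from NCAC was called (0.60, adjusted p = 0.047). In fits of only the groups compared both were called as well, with adjusted p of 0.011 against Con and 0.020 against NCAC. At week 6 Sgk1 was 14.6 ± 2.24 TPM in CAC, 13.6 ± 5.33 in NCAC and 18.8 ± 2.84 in Con hearts (SD, n = 5 each).

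**Figure D2:**
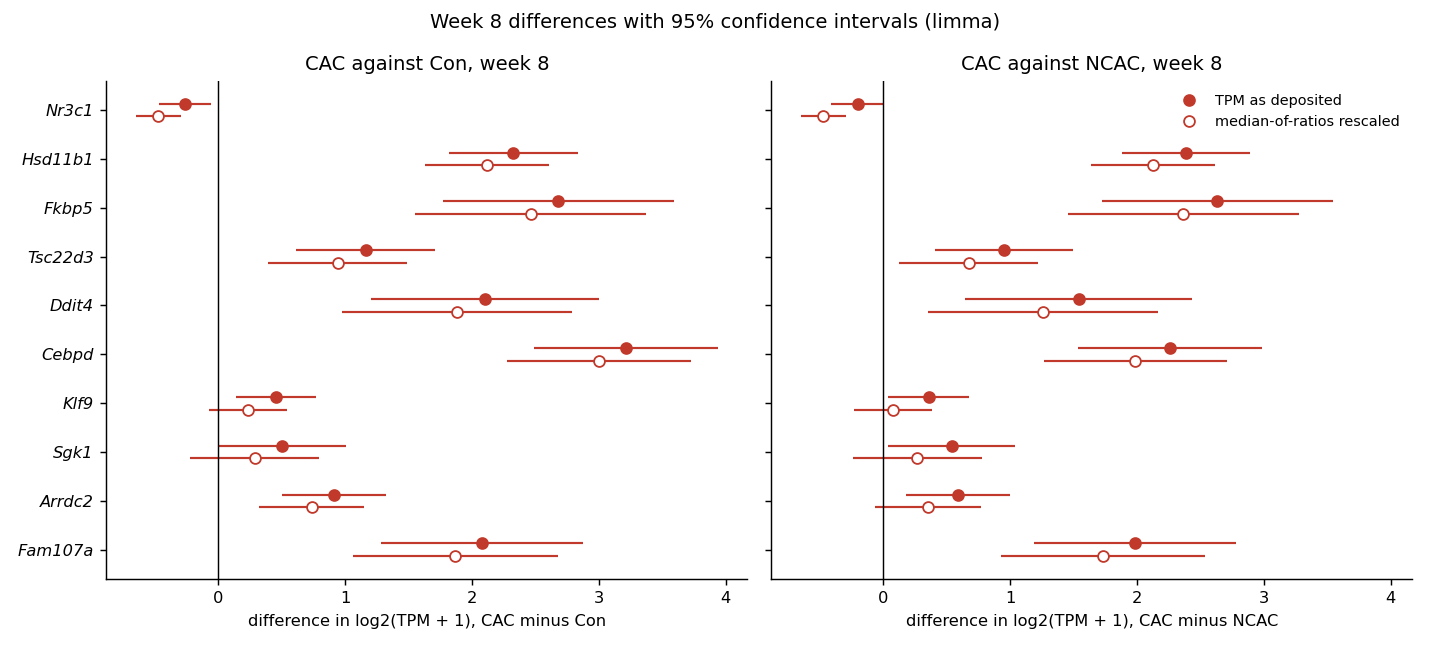
Difference in log2(TPM + 1) of each gene at week 8 for CAC minus Con (left) and CAC minus NCAC (right), with 95% confidence intervals from limma, filled points for TPM as deposited and open points after rescaling. The intervals of Hsd11b1, Fkbp5, Tsc22d3, Ddit4, Cebpd and Fam107a lie above 0 in all 4 settings. After rescaling those of Klf9 and Sgk1 cross 0 in both panels and that of Arrdc2 does so against NCAC.

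The count of called genes rose with time in CAC hearts, and so did the share of all tested genes called. In CAC against Con 0 genes were called at week 2, where 1.84% of tested genes were called in either direction and no member had an unadjusted p below 0.05 in limma (21.8% of tested genes had). At week 4 the count was 2 higher (Hsd11b1 and Cebpd), beside 12.7% of tested genes. At week 6 it was 4 higher (Hsd11b1, Fkbp5, Cebpd and Arrdc2), beside 50.5%. Against NCAC the counts were 0 at week 2 (0.59% of tested genes called, 2 members, Tsc22d3 and Sgk1, with an unadjusted p below 0.05 in limma, both lower, beside 14.3% of tested genes), 2 higher at week 4 (13.7%), 5 higher at week 6 (47.7%) and 8 higher at week 8 (57.4%). The week 6 counts, 4 of 10 against Con and 5 of 10 against NCAC, are near the shares of 50.5% and 47.7%. CAC is in both comparisons, so they are not independent. Leaving out CAC week 8 replicate 3 gave 9 higher and 1 lower against each arm, where 55.6% of tested genes were called higher and 10.3% lower against Con, and 61.1% higher and 9.12% lower against NCAC. In a fit of only the CAC and Con libraries of week 6 all 10 genes were called, with Nr3c1 and Sgk1 lower, beside 50.9% of tested genes higher and 5.99% lower.

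After rescaling 7 members were called higher and 1 lower in CAC against Con at week 8, where 25.9% of tested genes were called higher. The higher ones were Hsd11b1, Fkbp5, Tsc22d3, Ddit4, Cebpd, Arrdc2 and Fam107a. Against NCAC at week 8 there were 6 higher and 1 lower, where 25.2% were called higher, and Arrdc2 was no longer among them. At week 6 against Con there were 3 higher (Hsd11b1, Fkbp5 and Cebpd) and 1 lower (Nr3c1), where 19.4% were called higher.

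The change with time was tested as the difference between the CAC over Con contrasts of 2 weeks. From week 2 to week 8 the contrast grew for 5 members, beside 19.1% of tested genes. The growth was 2.22 for Hsd11b1 (limma adjusted p = 1.6e-05), 2.37 for Fkbp5 (adjusted p = 0.0066), 2.47 for Cebpd (adjusted p = 4.7e-04), 1.93 for Fam107a (adjusted p = 0.011) and 1.75 for Ddit4 (adjusted p = 0.041). All but Ddit4 kept this call when any single library was left out, and Ddit4 lost it in 13 of 22 such fits and after rescaling (adjusted p = 0.054). Nr3c1 was not called as deposited, but after rescaling its contrast changed by -0.48 from week 2 to week 8 (limma adjusted p = 0.0040). From week 4 to week 8 its rescaled change was -0.44 (adjusted p = 0.034). Called lower there were 2000 and 435 of 12541 tested genes. From week 4 to week 8 the contrast grew for 6 members, the same 5 and Arrdc2, beside 6.63% of tested genes. That count was 0 with Con week 4 replicate 2 kept, 1 without Con week 4 replicate 5 and 3 without CAC week 4 replicate 1 or 5 or Con week 4 replicate 4. Between weeks 4 and 8 the CAC means of these genes rose and their Con means fell. For Ddit4 the mean went from 32.3 to 76.0 TPM in CAC and from 51.2 to 15.6 TPM in Con hearts. For Hsd11b1 it went from 9.25 to 21.2 TPM in CAC and only from 3.69 to 3.09 TPM in Con hearts. From week 6 to week 8 none of the 10 was called (0.152% of tested genes), and 2 had an unadjusted p below 0.05 in limma, beside 7.82% of tested genes.

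In NCAC against Con none of the 10 was called by limma at weeks 2, 4, 6 or 8, where 0%, 0%, 0% and 0.71% of tested genes were called. At week 2, however, all 10 differences were positive, with a median of 0.74, and 5 had an unadjusted p below 0.05, beside 8% of tested genes and a median of 0.034 over them. In the same comparison 10 of the 19 core clock genes had an unadjusted p below 0.05, with a median of 0.24, and the part of the unknown hour of collection was not tested. Tsc22d3 was 34.5, 45.0, 51.5, 52.4 and 58.9 TPM in NCAC hearts at week 2, against 17.4, 21.2, 21.9, 24.7 and 38.3 TPM in Con hearts, and 4 of 5 NCAC hearts exceeded every Con heart (difference 0.97, adjusted p = 0.51). Ddit4 exceeded every Con heart in all 5 NCAC hearts (47.5 ± 28.2 against 17.6 ± 4.56 TPM, SD, n = 5 each, difference 1.25, adjusted p = 0.52). At weeks 4, 6 and 8 the numbers of members with an unadjusted p below 0.05 were 0, 0 and 1, beside 0.821%, 1.7% and 15.5% of tested genes.

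The genes differed in how far they varied among hearts without cachectic tumours. Over all weeks Ddit4 spanned 7.52 to 93.4 TPM in the 20 NCAC hearts and 9.34 to 108.5 TPM in the 19 Con hearts. Fkbp5 spanned 2.00 to 16.1 TPM in NCAC and 1.74 to 16.6 TPM in Con hearts, and Fam107a 1.00 to 6.77 TPM in NCAC and 1.04 to 16.1 TPM in Con hearts. The high end in Con hearts came from week 4, where Con replicate 5 had 16.6 TPM of Fkbp5, 16.1 of Fam107a, 70.2 of Tsc22d3 and 108.5 of Ddit4, while Con replicate 1 had 1.74, 1.04, 18.7 and 12.8 TPM of the same genes. In that replicate 5 Hsd11b1 was 4.05 TPM, within the narrow range of the arm. The highest Con value of Fkbp5 thus lay above 2 CAC hearts of week 6 or 8, whereas no Con or NCAC heart at any week reached the lowest Hsd11b1 value of CAC hearts at weeks 6 and 8, 5.76 TPM.

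**Figure D3:**
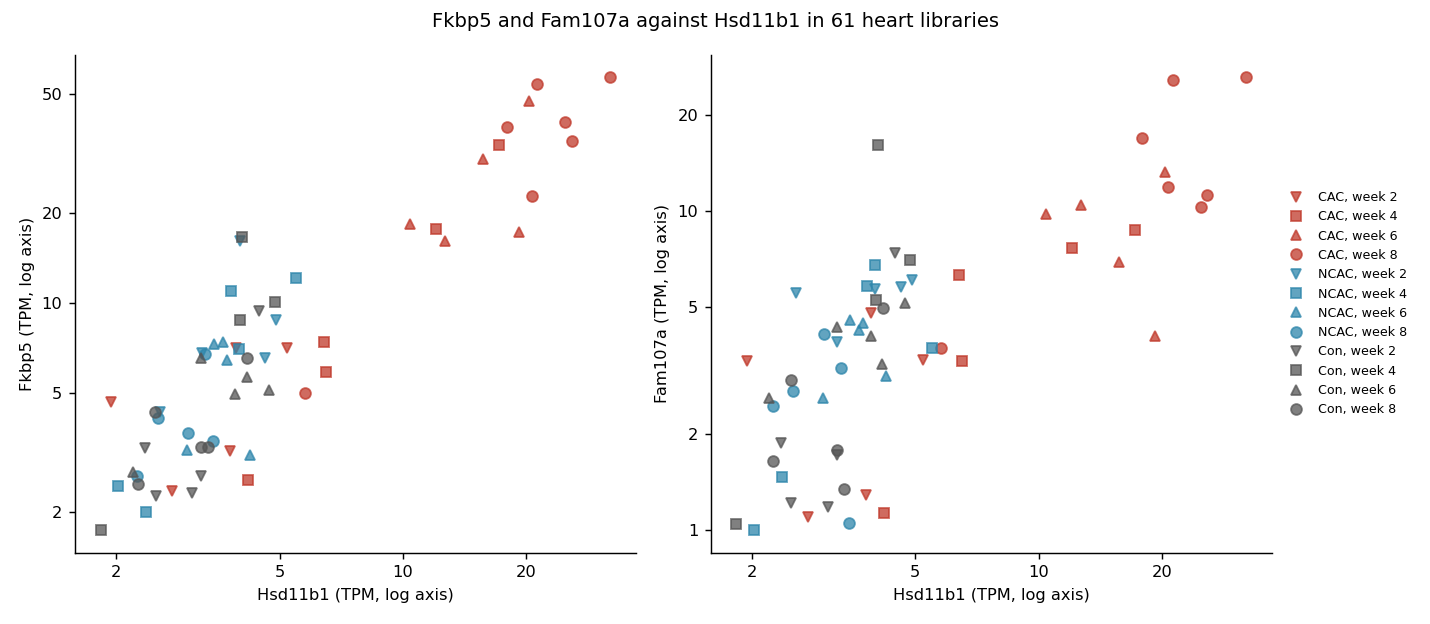
TPM of Fkbp5 (left) and Fam107a (right) against TPM of Hsd11b1, both axes log, in 61 heart libraries, with colour for the arm and the marker for the week. Con and NCAC hearts spread over 1.74 to 16.6 TPM of Fkbp5 but reach at most 5.50 TPM of Hsd11b1, and CAC hearts of weeks 6 and 8 lie to the right of all of them, with CAC week 8 replicate 3 closest at 5.76 TPM.

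Hearts within a group moved together over several of these genes. Of the 9 genes other than Nr3c1, 8 were lowest in replicate 3 among CAC hearts at week 8, and replicates 1 and 6 were the 2 highest for 6. Replicate 3 was above all Con hearts of week 8 for 3 of the 9, namely Hsd11b1, Cebpd and Arrdc2. That library also had 54.9 TPM of the acute phase gene Serpina3n, against 1665 to 2841 in the other 6, and 5634 TPM of Myh6, against 3419 to 5251. Its mitochondrial share was 55.7%, against 50.1 to 53.5%. At week 6 replicate 1 was highest for 8 of the 9 genes.

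**Figure D4:**
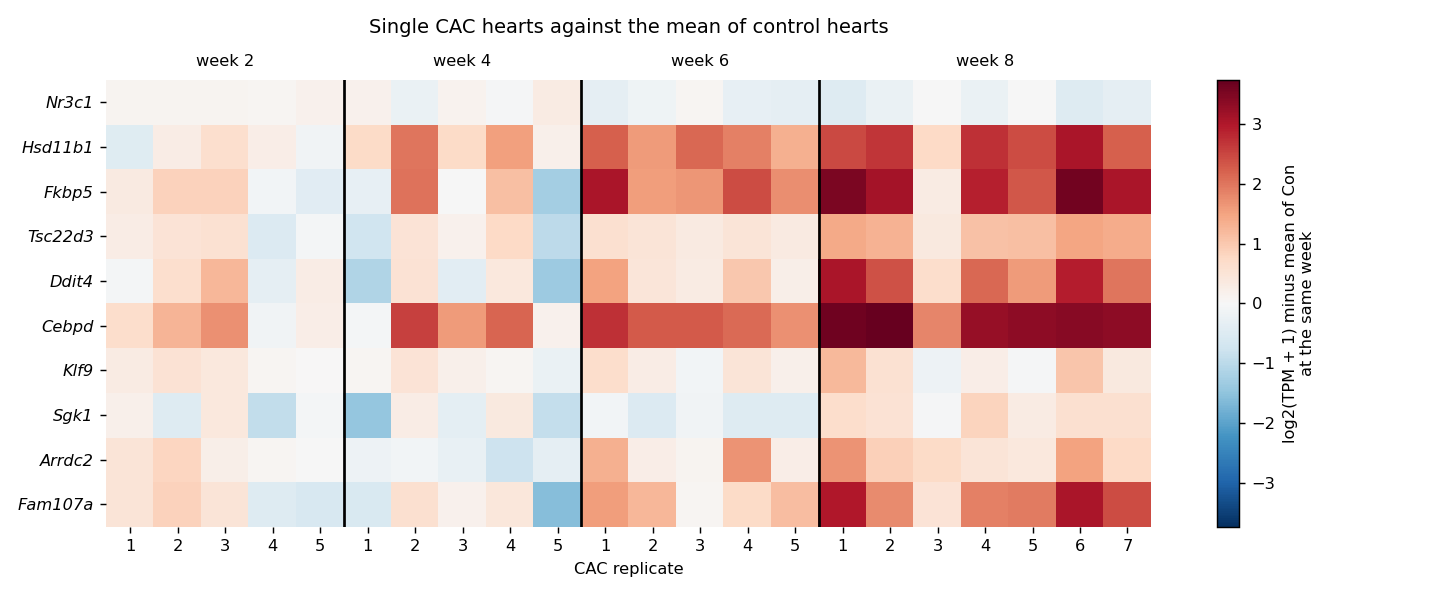
Colour gives log2(TPM + 1) of each gene in each CAC heart minus the mean of Con hearts of the same week, with red for higher and blue for lower. The columns of weeks 6 and 8 are red for Hsd11b1, Fkbp5 and Cebpd, and the column of week 8 replicate 3 is paler than its neighbours.

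Deviations of single libraries from their group means took out the differences between group means, but not those among CAC hearts of 1 group. At week 8 Fkbp5 exceeded the Con mean by 0.32 on the log2(TPM + 1) scale in CAC replicate 3 and by 3.59 in replicate 6. The part of such hearts in the correlations was not tested. Over 61 libraries Fkbp5 correlated most with Fam107a (Pearson r = 0.84) and Hsd11b1 (r = 0.82) among the members, and Tsc22d3 with Cebpd (r = 0.85). Nr3c1 ran against the others, with r between -0.57 for Fkbp5 and -0.22 for Klf9. The genes most like each member were taken over all tested genes. For Fkbp5 they were Map3k6 (r = 0.94) and Xdh (r = 0.92), for Hsd11b1 the metallothionein gene Mt1 (r = 0.87) and the oncostatin M receptor gene Osmr (r = 0.83), and for Fam107a Timp3 (r = 0.89) and Map3k6 (r = 0.87). For Tsc22d3 they were Cebpb (r = 0.91) and Herpud1 (r = 0.89), for Ddit4 Nfkbia (r = 0.86) and Fzd4 (r = 0.80), and for Cebpd AI607873 (r = 0.86) and Slc10a6 (r = 0.84). For Klf9 they were Klf15 (r = 0.84) and Pik3r1 (r = 0.83), for Sgk1 S1pr1 (r = 0.88) and Cdc42ep4 (r = 0.82), for Arrdc2 Pim3 (r = 0.76) and Rgcc (r = 0.73), and for Nr3c1 Twsg1 (r = 0.87) and Col14a1 (r = 0.84). Over the 12 group means the closest were Bmper for Hsd11b1 (r = 0.997), Slc43a3 for Fkbp5 (r = 0.996), Dtna for Cebpd (r = 0.98) and Chrd for Fam107a (r = 0.98). These values describe likeness only, since the points share libraries and their common shifts in TPM share.

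Other genes known to be glucocorticoid targets were mostly higher in CAC hearts at week 8. Of 29 tested among 30 listed, the comparison of CAC with Con gave 23 rises and 1 fall, with a median difference of 1.14, beside 50.8% of all tested genes higher, 9.98% lower and a median of 0.19. Against NCAC 25 rose and 1 fell, beside 57.4% and 8.76% of tested genes, and after rescaling 19 rose and 3 fell against Con, beside 25.9% and 25.8%. The gene that fell against Con, named after its values were seen, was Angptl4, an inhibitor of lipoprotein lipase, with 1.09 ± 0.570 TPM in CAC hearts (SD, n = 7) and 3.23 ± 2.42 TPM in Con hearts (SD, n = 5). At weeks 2, 4 and 6 the counts against Con were 2 (Mt2 and Lpin1), 6 and 16 higher and 0 lower, beside 1.84% in either direction, 12.7% higher and 50.5% higher over all tested genes, and the week 6 count of 16 of 29 is near that share. The metallothionein gene Mt2, which binds zinc and is induced by both glucocorticoids and inflammation, averaged 1848 ± 1006 TPM in CAC hearts (SD, n = 7) and 20.9 ± 13.8 TPM in Con hearts (SD, n = 5), a difference of 6.20 (limma adjusted p = 3.2e-14). Its close relative Mt1 differed by 3.75 (adjusted p = 6.5e-13). Lcn2, an iron-scavenging acute phase gene that is also on the list of acute phase genes, had 239 ± 116 TPM in CAC and 0.853 ± 0.318 TPM in Con hearts, and the bile acid transporter family gene Slc10a6 had 38.6 ± 17.9 and 1.42 ± 0.402 TPM (differences 6.37 and 3.79, adjusted p = 6.8e-13 and 2.2e-12).

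Genes that hold, modify or supply the receptor were followed as well. Of 20 tested chaperones, partners and prereceptor genes among 22 listed, the week 8 comparison of CAC with Con gave 4 rises and 2 falls, with a median of 0.13, beside the 50.8% higher and 9.98% lower of all tested genes, whose median was 0.19. Fkbp4, the counterpart of Fkbp5 that favours receptor activity and transport, fell to 97.9 ± 18.4 TPM in CAC hearts (SD, n = 7), against 161 ± 12.02 TPM in Con hearts (SD, n = 5), by 0.73 (limma adjusted p = 9.7e-09). H6pd, which supplies Hsd11b1 with its cofactor in the endoplasmic reticulum, rose to 19.95 ± 3.62 TPM in CAC hearts, against 12.8 ± 1.57 TPM in Con hearts (0.59, adjusted p = 8.6e-06). The chaperone genes Ppid and Hspa8 rose by 0.19 and 0.44 (adjusted p = 0.0027 and 0.0033), where the median of all tested genes was also 0.19. The mineralocorticoid receptor gene Nr3c2, whose product also binds corticosterone, fell by 0.32 (adjusted p = 0.045). The opposing enzyme gene Hsd11b2, named like Nr3c2 after its values were seen, inactivates corticosterone and was too low to be tested, with 0.576 ± 0.441 TPM in CAC and 0.0297 ± 0.0211 TPM in Con hearts. After rescaling 1 gene of this list rose and 7 fell, beside 25.9% and 25.8% of tested genes, so at most 1 of the rises named here kept its call.

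Paralogues of the members gave 10 rises and 2 falls among 16 tested at week 8 against Con, with a median of 0.31, and both counts are near the 50.8% and 9.98% of all tested genes. After rescaling 6 rose and 3 fell, where 25.9% and 25.8% did. Fkbp4 and Nr3c2, the 2 that fell before rescaling, are on this list too. Cebpa, a sister transcription factor gene of Cebpd, had 5.11 ± 1.33 TPM in CAC and 1.85 ± 0.245 TPM in Con hearts (1.07, limma adjusted p = 1.3e-09). Tsc22d1 and Arrdc1 rose by 0.60 and 0.57 (adjusted p = 2.0e-06 and 1.8e-06), which is below the rise of Tsc22d3 and Arrdc2, a difference that was not tested.

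Clock genes are relevant beside these values because Per1 is both a clock gene and a receptor target. The 19 core clock genes gave 5 rises and 2 falls in CAC hearts at week 8 relative to Con hearts, with a smaller share of rises than the 50.8% of all tested genes and a share of falls near the 9.98%. Per1 had 40.8 ± 14.03 TPM in CAC and 18.4 ± 8.37 TPM in Con hearts (1.14, limma adjusted p = 0.0070). Nr1d1, which encodes a clock repressor, had 33.4 ± 22.0 TPM in CAC and 69.1 ± 18.7 TPM in Con hearts (-1.33, adjusted p = 0.013), and the repressor gene Bhlhe41 fell by 0.47 (adjusted p = 0.0039). After rescaling 1 of the 19 rose and 2 fell, both smaller shares than the 25.9% and 25.8% of all tested genes. The part of the hour of collection in the levels of the members was not tested.

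Acute phase genes rose in the same hearts. All 13 tested genes of the list of 14 acute phase and STAT3 genes rose in CAC against Con at week 8, with a median of 1.87, and all 13 rose at week 6, beside the 50.8% and 50.5% of all tested genes called higher at those weeks. The protease inhibitor gene Serpina3n had 1854 ± 904 TPM in CAC hearts (SD, n = 7) and 2.43 ± 0.614 TPM in Con hearts (SD, n = 5), a difference of 8.54 (limma adjusted p = 4.5e-16). The cytokine signalling inhibitor gene Socs3 had 63.0 ± 31.5 and 2.57 ± 0.550 TPM, the receptor gene Osmr 22.1 ± 6.62 and 2.80 ± 0.337 TPM and the receptor gene Il1r1 14.4 ± 3.63 and 4.27 ± 0.558 TPM. In NCAC against Con at week 8 none of the 13 was called, nor had any an unadjusted p below 0.05 in limma. Serpina3n is also known to respond to glucocorticoids, and the share of these genes in the changes of Cebpd, Hsd11b1 or the others was not tested.

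Markers of other cell types also differed in the same hearts, and their counts stand beside the same 50.8% higher and 9.98% lower. At week 8 all 6 macrophage markers rose in CAC against Con, and their summed level was 205 to 504 TPM in CAC, 58.1 to 131.0 in NCAC and 99.7 to 142 in Con hearts. All 5 neutrophil markers rose, with sums of 17.5 to 45.5 TPM in CAC, 12.1 to 33.7 in NCAC and 6.69 to 21.3 in Con hearts. Of 5 fibroblast markers 2 rose (sums of 635 to 1294 TPM in CAC, 408 to 589 in NCAC and 467 to 558 in Con hearts), and of 7 cardiomyocyte markers 1 rose and 4 fell (sums of 19880 to 28870 TPM in CAC, 27040 to 34390 in NCAC and 28350 to 35520 in Con hearts). Endothelial markers gave 2 falls among 5, mural cell markers 1 rise and 1 fall among 4 (1 and 2 after rescaling), and B cell markers 3 falls among 3 tested. After rescaling 4 neutrophil markers and 2 adipocyte markers rose, and 6 cardiomyocyte markers fell. The rescaled counts, also those of mural cell markers, stand beside 25.9% of tested genes higher and 25.8% lower. Adipocytes are rich in Hsd11b1 in mice, and the 3 tested of 5 adipocyte markers rose against Con, while none was called against NCAC, by limma or at an unadjusted p below 0.05. The adipocyte genes Plin1 and Lep were near 0 in CAC hearts (means of 0.136 and 0.0181 TPM) and in Con hearts (0.0431 and 0.00262 TPM). In whole tissue fewer cells of a type and less RNA per cell cannot be told apart, and the part of these cell types in the levels of the 10 genes was not tested.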

How the data were processed

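RNA of whole mouse hearts was extracted with Trizol, converted to libraries by a strand-specific mRNA protocol and read on an Illumina NovaSeq instrument, per the labels' protocols. Reads were mapped to mm10, per the submitters' processing notes, and no source used here gives the aligner, the counting tool or the annotation. TPM per gene symbol were deposited by the authors for 62 libraries in a single file. TPM carry no read depth, so the depth of each library is unknown and no counting intervals are given.

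Values were transformed as log2(TPM + 1), which understates the change of low genes. The 12 group means were fitted over 61 libraries by limma-trend (limma 3.58.1, R 4.3.3, the data.table package, version 1.17.8), which gave 12 comparisons of pairs of arms and 3 of contrasts between weeks. Adjustment within each comparison was by Benjamini-Hochberg over 12541 tested genes, with a threshold of 0.05. The steps were tested on simulated data. As alternatives the pseudocount was 0.1, the filter was dropped (23360 genes) or raised to 5 TPM (8788 genes), and libraries were rescaled by median of ratios (14527 genes), also without mitochondrial and haemoglobin genes. Further ones were a replicate block, Con week 4 replicate 2 kept, only the groups compared and each library left out. Leaving out CAC week 8 replicate 3 together with rescaling was added after the data were seen. Replicate numbers come from the labels. Figures and motif searches used Python 3.11.15, pandas 2.3.3, numpy 2.4.6 and matplotlib 3.10.9.

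The 10 genes and all lists were chosen with earlier results of these data known. Of each further list the text names the 4 called genes with the smallest p in CAC against Con at week 8, and of likeness the 2 highest correlations per gene, except 1 gene that is not reported here. Promoters printed were those of called genes by smallest p, and 1 of Sgk1, which was not called and was shown for its motif. Other named genes are marked as chosen after their values were seen, except the cell type markers Myh6, Plin1 and Lep, and Lpin1, named as called at week 2.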

Additional observations from a re-analysis of the deposited data

Results flagged for a closer look

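A library was compared with the others of its group for each of the 10 genes in 12 groups, and in 7 of these 120 comparisons the lowest or highest library lay apart by Dixon's criterion, where chance alone marks about 1 in 20. In CAC hearts at week 8 Cebpd was 16.9 TPM in replicate 3, against 46.3 to 65.6 in the other 6. In NCAC hearts Sgk1 was 7.35 TPM in week 8 replicate 2 (others 14.2 to 15.5), Arrdc2 was 5.25 TPM in week 8 replicate 3 (others 2.28 to 2.94) and Fam107a was 3.88 TPM in week 2 replicate 3 (others 5.52 to 6.07). In Con hearts at week 2 Nr3c1 was 14.5 TPM in replicate 1 (others 21.1 to 23.0). In the same group replicate 5 had 9.42 TPM of Fkbp5 (others 2.26 to 3.29) and 7.39 TPM of Fam107a (others 1.18 to 1.88).

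The CAC over Con difference itself differed between weeks for several genes by limma's test of the difference. From week 2 to week 8 it grew by 2.22 for Hsd11b1, 2.37 for Fkbp5, 1.75 for Ddit4, 2.47 for Cebpd and 1.93 for Fam107a on the log2(TPM + 1) scale. From week 4 to week 8 it grew by 1.29 for Hsd11b1, 2.36 for Fkbp5, 2.49 for Ddit4, 1.94 for Cebpd, 1.25 for Arrdc2 and 2.28 for Fam107a, and all 6 of these calls were lost with Con week 4 replicate 2 kept.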

How the results depend on the processing

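At week 8 Hsd11b1, Fkbp5, Tsc22d3, Ddit4, Cebpd, Arrdc2 and Fam107a kept direction and call against Con under every alternative tried. The count of called members moved by over 1.5 times in these cases. For CAC against Con at week 4 (2 called) it was 1 with no filter, 4 with Con week 4 replicate 2 kept and 0 in a fit of only the groups compared, and 0 to 2 with single libraries left out. For CAC against Con at week 6 (4 called) a fit of only the groups compared gave 10 (8 higher and 2 lower). For CAC against NCAC it was 1 at week 4 (2 called) in a fit of only the groups compared, and at week 6 (5 called) 3 with Con week 4 replicate 2 kept and 3 to 7 with single libraries left out. For the growth of the CAC over Con difference from week 4 to week 8 (6 called) it was 0 with Con week 4 replicate 2 kept and 0 in a fit of only the groups compared, and 1 to 7 with single libraries left out. The difference of Sgk1 between CAC and NCAC hearts at week 6, 0.17 and not called, turned to -0.037 with rescaling and to -0.036 with rescaling without mitochondrial and haemoglobin genes, and was -0.011 to 0.31 with single libraries left out. The cause was not tested.

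Counts over all tested genes moved with keeping Con week 4 replicate 2, rescaling and a fit of only the groups compared. With Con week 4 replicate 2 kept, CAC against Con gave 0, 7424, 3315 and 4374 calls at weeks 2, 4, 6 and 8 (231, 1883, 6997 and 7619 without it), and CAC against NCAC gave 2, 621, 3274 and 5237 (74, 2074, 6841 and 8295 without it). NCAC against Con at week 8 gave 89 calls, 730 with rescaling, 1057 with rescaling without mitochondrial and haemoglobin genes, 1 with Con week 4 replicate 2 kept and 6 in a fit of only the groups compared. CAC against Con at week 2 gave 56 with rescaling, 52 with rescaling without mitochondrial and haemoglobin genes and 22 with only the groups compared, where CAC against NCAC gave 132. The growth from week 2 to week 8 gave 3329 calls, 1149 with that library kept and 2118 with only the groups compared. That from week 4 gave 965, with 628 under the replicate block, 179 with that library kept, 0 with only the groups compared and 2126 with CAC week 8 replicate 3 left out and rescaling. That from week 6 gave 19, with 9 for no filter, 11 under the replicate block, 0 with that library kept or only the groups compared, and 258 with CAC week 8 replicate 3 left out and rescaling.

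Replicate numbers were not treated as pairs in the main fit. Over 58 same-numbered pairs the correlation of deviations from the group means was -0.28 to 0.41, with a median of 0.0054, and 14 exceeded 0.1. With the replicate block 7 members were called in CAC against Con at week 8, since Klf9 and Nr3c1 were not (adjusted p = 0.059 and 0.118), and 7 against NCAC. Read depth is unknown, so what depth limits could not be given.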
